A study of Arabidopsis thaliana with 6 samples.

Results

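POLA3 (AT5G41880), POLD3 (AT1G78650), PRL (AT4G02060), REV7 (AT1G16590), RAD4 (AT5G16630), ATNTH1 (AT2G31450) and DRT100 (AT3G12610) are 7 Arabidopsis genes of DNA replication and DNA repair, each measured by a single probe set among the 22746 tested, of which 13513 name 1 gene. They were picked by name because an earlier analysis of the same arrays had called them between plants that make human p53 and wild type (WT) plants. The difference between genotypes was therefore what chose them, and it is given here as a description. The standard errors, intervals and adjusted p printed for these 7 genes come from the contrast that chose them and are no independent test. By known function POLA3, POLD3 and PRL copy the genome, RAD4 and ATNTH1 start excision repair, and REV7 belongs to damage tolerance. DRT100 carries a repair name but encodes a leucine-rich repeat protein, so the excision repair label covers only some of the repair genes.

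Both groups were Col-0 seedlings, 10 days old and grown with a 16-hour day. The p53-transgenic seedlings carried 35S:P53, in which the constitutive 35S promoter of cauliflower mosaic virus drives human p53, and the wild type seedlings carried no transgene that the labels name. RNA of 3 p53 and 3 WT samples, numbered 1 to 3 and drawn from separate biological experiments according to the labels, was measured on ATH1 GeneChip arrays. The sources used here do not say which transgenic line gave the RNA, and the p53 transcript itself was not analysed. A probe set is a group of short oligonucleotides that match one transcript. Each deposited value is a log ratio to the median of its probe set across the 6 arrays, so it sets arrays against each other for one gene and gives no level. Logs were read as base 2, and every fold printed depends on that reading. Levels of different genes cannot be compared, and seedling markers could be read only as differences between arrays.

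In a dividing cell the MCM helicase opens the double helix, DNA polymerase alpha with its primase lays down short primers, and DNA polymerases delta and epsilon extend them. Damaged bases are cut out along several routes. In nucleotide excision repair a recognition factor finds bulky lesions such as those made by ultraviolet light, and in base excision repair a glycosylase removes a single altered base. Lesions that remain can be passed by translesion polymerases, which tolerate damage without removing it. Plants lack a p53 gene of their own. In mammals p53 is a transcription factor that responds to DNA damage.

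The replication genes were higher in p53-transgenic seedlings, 3 of the 4 repair genes were lower, and DRT100 was higher. Differences between genotypes come from a limma fit across all probe sets, in which a probe set was called at an adjusted p under 0.05. Of the 22746 probe sets 15.4% were called, 6.55% as higher and 8.84% as lower in p53-transgenic seedlings. All 7 genes were called because that is how they were picked, with adjusted p between 0.00732 for POLD3 and 0.0429 for REV7. With an array left out, POLA3, PRL and DRT100 missed that threshold without p53 replicate 1, WT replicate 1 or WT replicate 3 (0.0660 to 0.0915), and RAD4 missed it without any 1 of the WT arrays (0.0522 to 0.0840). ATNTH1 missed it without any 1 array other than p53 replicate 2 (0.0520 to 0.120) and with the replicate numbers blocked (0.0588). REV7 missed it without any 1 array (0.0590 to 0.146), with the block (0.0677) and with each array centred on its median (0.0504). Nearest to the threshold on its other side, among the other replication and repair genes examined, stood DRT101 (log2 fold change 0.37, adjusted p 0.0791). The p53 and WT arrays did not overlap for any of the 7 genes, nor for 34.3% of all probe sets. At an unadjusted p under 0.05 in limma, 29.2% of all probe sets passed, the 7 genes among them. With the methods' t-test, adjusted here, 6.2% passed, of the 7 genes only POLD3. The study's own rule, given in a legend, was a t test p under 0.05 with a fold change over 2 and no adjustment named. That rule was not applied here. Where groups do not overlap, the centring places the nearest p53 array and the nearest WT array at the same distance from 0, so the inner values below mirror each other by construction. The seedlings were sampled whole, so a change in the share of dividing cells and a change in RNA per cell cannot be told apart.

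**Figure D1:**
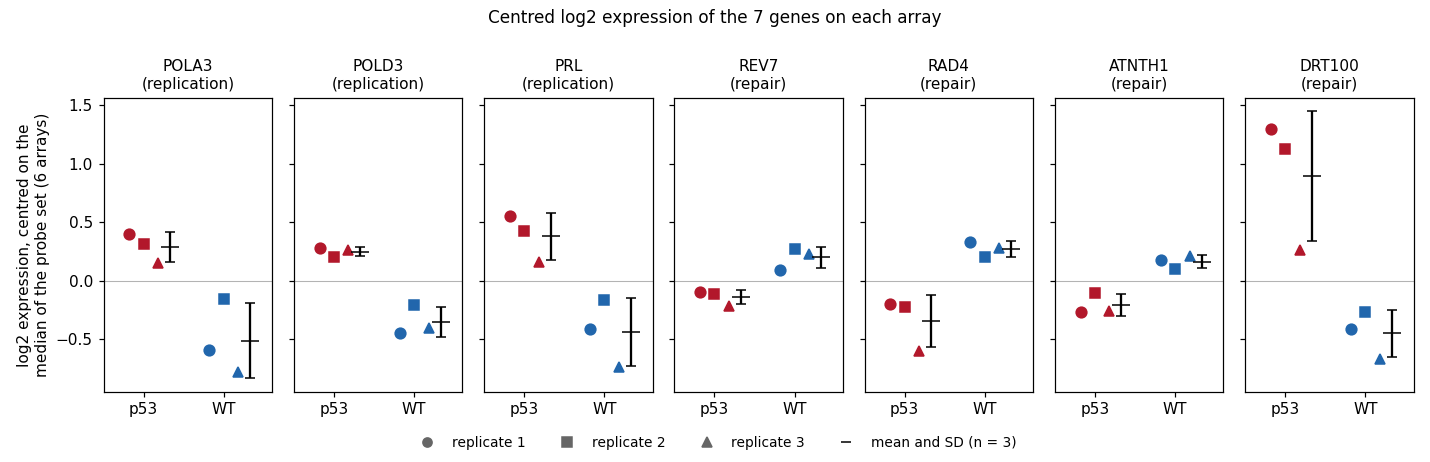
Centred log2 expression (y axis) of the 7 genes on the p53 arrays (red) and the WT arrays (blue). Marker shapes give the replicate number and black bars give the mean and SD (n = 3). The genotypes do not overlap for any gene, the p53 arrays lie above for POLA3, POLD3, PRL and DRT100 and below for REV7, RAD4 and ATNTH1, and p53 replicate 3 of DRT100, at 0.27, stands far below the other p53 arrays.

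PRL, also named PROLIFERA, encodes MCM7, a subunit of the helicase that unwinds DNA at replication forks. Its centred log2 values were 0.56, 0.43 and 0.16 in p53 replicates 1 to 3, against -0.41, -0.16 and -0.74 in WT replicates 1 to 3. The groups were set apart by 0.32 at their nearest arrays, p53 replicate 3 and WT replicate 2. The log2 fold change (p53 over WT) was 0.82 (standard error 0.17), or 1.76-fold, with a 95% confidence interval of 0.42 to 1.22 on the log2 scale. Only 4.27% of all probe sets had a higher log2 fold change.

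POLA3 encodes a subunit of the primase that works with DNA polymerase alpha. It had centred log2 values of 0.40, 0.32 and 0.15 in p53-transgenic seedlings and of -0.59, -0.15 and -0.78 in WT. The WT arrays were spread over 0.63, more than the 0.25 of the p53 arrays, and again WT replicate 2 came nearest to the p53 group. The mean was 0.29 ± 0.13 in p53-transgenic seedlings and -0.51 ± 0.32 in WT (SD, n = 3 each), a log2 fold change of 0.80 (standard error 0.17), or 1.74-fold, with a 95% confidence interval of 0.40 to 1.2 on the log2 scale.

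POLD3 encodes an accessory subunit of DNA polymerase delta. The p53 arrays held 0.28, 0.21 and 0.26, within 0.078 of each other, against -0.44, -0.21 and -0.41 in the WT arrays. This was the tightest p53 group among the 7 genes. Its log2 fold change of 0.60 (standard error 0.09), or 1.52-fold, was the smallest of the replication genes, yet the gap of 0.41 between the nearest arrays was the widest of them. It made up 68.5% of the log2 fold change, whereas the gaps of POLA3 and PRL made up 38.3% and 39.7%.

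RAD4 is the Arabidopsis homolog of the yeast Rad4 and human XPC proteins, which recognize lesions for nucleotide excision repair. Centred log2 values of -0.20, -0.23 and -0.60 in p53 replicates 1 to 3 stood against 0.33, 0.20 and 0.28 in the WT arrays. The WT arrays lay close together, and p53 replicate 3 was well below the other p53 arrays. The mean was -0.34 ± 0.23 in p53-transgenic seedlings and 0.27 ± 0.07 in WT (SD, n = 3 each). The log2 fold change of -0.62 (standard error 0.13) corresponds to a level 1.53-fold higher in WT, and 6.51% of probe sets had a lower log2 fold change.

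ATNTH1 encodes a homolog of bacterial endonuclease III, a glycosylase and lyase that removes oxidized pyrimidines in base excision repair. It had -0.26, -0.10 and -0.26 in the p53 arrays and 0.18, 0.10 and 0.22 in the WT arrays, a log2 fold change of -0.37 (standard error 0.09). The nearest arrays of the genotypes, both with replicate number 2, were 0.20 apart. The level was 1.29-fold higher in WT, and 12.9% of all probe sets had a lower log2 fold change.

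REV7 encodes a non-catalytic subunit of DNA polymerase zeta, which extends DNA across lesions in translesion synthesis. The p53 arrays held -0.10, -0.11 and -0.21 and the WT arrays 0.10, 0.28 and 0.23. The log2 fold change of -0.34 (limma standard error 0.09) was the smallest in size among the 7 genes and corresponds to a level 1.27-fold higher in WT. The gap between the nearest arrays was 0.19, and 14.4% of all probe sets had a lower log2 fold change.

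DRT100 was named after a screen in which plant cDNAs were tested for rescue of repair-deficient bacteria, and its product has leucine-rich repeats, as many cell wall and receptor proteins do. It had the largest difference of the 7 genes. Centred log2 values were 1.3, 1.13 and 0.27 in the p53 arrays, against -0.41, -0.27 and -0.67 in the WT arrays. The p53 arrays were thus spread over 1.03, more than the 0.40 of the WT arrays, and p53 replicate 3 alone accounts for most of that width. The mean was 0.90 ± 0.55 in p53-transgenic seedlings and -0.45 ± 0.20 in WT (SD, n = 3 each). The log2 fold change of 1.34 (standard error 0.27, 95% confidence interval 0.71 to 1.98), or 2.54-fold, was above that of 97.9% of probe sets, and DRT100 was the only one of the 7 past a fold of 2. Without p53 replicate 3 it was 1.66, and without p53 replicate 1 it was 1.15.

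**Figure D2:**
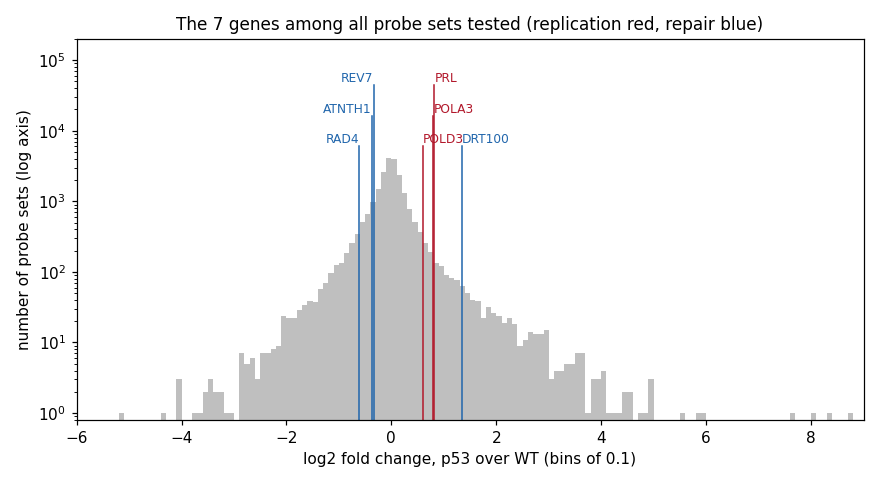
Histogram of the log2 fold change (p53 over WT, x axis, bins of 0.1) of all 22746 probe sets, with their number on a log axis (y axis). Vertical lines mark the replication genes (red) and the repair genes (blue). The red lines stand between 0.60 and 0.82, DRT100 stands at 1.34, and the other repair genes stand between -0.62 and -0.34. The histogram reaches far beyond all of these lines on both sides.

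Averaged on each array, the replication genes separated the genotypes while the repair genes taken as 4 did not. The mean of POLA3, POLD3 and PRL was 0.41, 0.32 and 0.19 in p53 replicates 1 to 3, and it was -0.48, -0.17 and -0.64 in WT replicates 1 to 3. The mean of the 4 repair genes was 0.18, 0.17 and -0.20 in the p53 arrays and 0.05, 0.08 and 0.02 in the WT arrays. In p53 replicates 1 and 2 that average lay above all WT arrays, and in p53 replicate 3 it lay below them. The difference between genotypes was 0.74 for the replication genes and 0.0045 for the 4 repair genes, with pooled SDs between arrays of 0.19 and 0.16. This near balance holds opposite members, since DRT100 was higher and the other 3 were lower. Without DRT100 the mean of the repair genes was -0.23 ± 0.11 in p53-transgenic seedlings and 0.21 ± 0.03 in WT (SD, n = 3 each), a difference of -0.44. Replication minus repair thus differed between genotypes by 0.74 with DRT100 counted as a repair gene and by 1.18 without it. Because the genes were chosen for their direction, these averages describe them and test nothing.

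**Figure D3:**
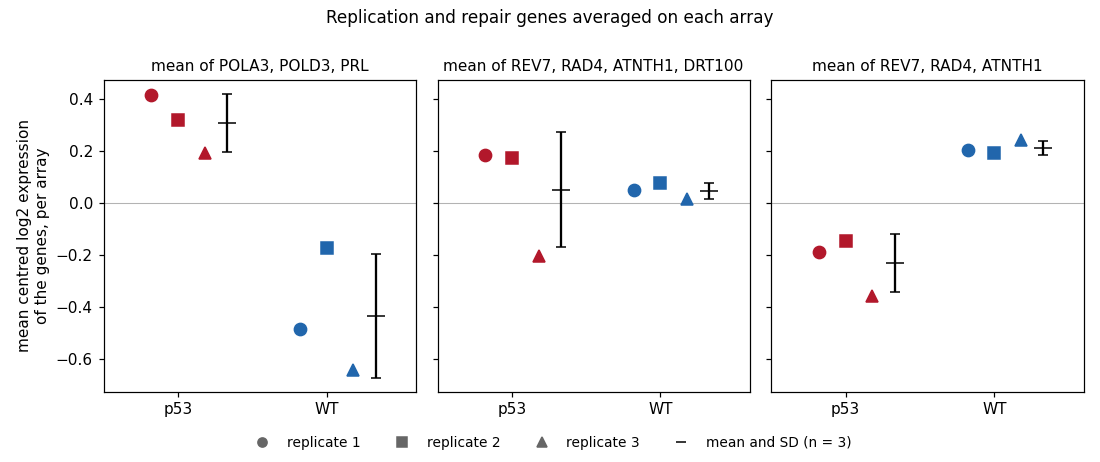
Mean centred log2 expression per array (y axis) over the 3 replication genes (left), the 4 repair genes (middle) and the repair genes without DRT100 (right), for p53 arrays (red) and WT arrays (blue). Marker shapes give the replicate number and black bars the mean and SD (n = 3). In the middle panel p53 replicate 3, at -0.20, lies below every WT array while the other p53 arrays lie above them.

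Arrays of the same genotype differed among themselves as follows, where the size of that spread entered the adjusted p that chose the genes. In WT, replicate 2 was the highest array for all 3 replication genes and for 5 of the 7 genes. It stood 0.36 above the WT mean for POLA3, 0.27 for PRL and 0.15 for POLD3. RAD4 and ATNTH1 were the exceptions, with WT replicate 2 the lowest of its group by 0.07 and 0.06 below the mean. Among p53 arrays replicate 1 was the highest for 6 of the 7 genes and replicate 3 the lowest for 5 of the 7. Relative to the p53 mean, replicate 3 lay at -0.63 for DRT100, at -0.26 for RAD4, at -0.22 for PRL and at -0.14 for POLA3. DRT100 and PRL were raised in p53-transgenic seedlings and RAD4 was lowered, so a low p53 replicate 3 narrowed the difference for DRT100 and PRL and widened it for RAD4.

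Because the genotypes did not overlap, differences between same-numbered arrays had to keep 1 sign for each gene, and only their sizes are described. For PRL the p53 minus WT difference was 0.97, 0.59 and 0.90 in numbers 1 to 3, and for POLA3 it was 0.99, 0.47 and 0.94. Number 2 gave the smallest difference for these genes and for POLD3, with 0.41 against 0.73 and 0.67 in numbers 1 and 3. It also gave the smallest for ATNTH1 (-0.20) and RAD4 (-0.43). REV7 was smallest in number 1 (-0.19) and DRT100 in number 3 (0.93). Over the 7 genes the largest of the 3 differences was between 1.64 times (PRL) and 2.33 times (ATNTH1) the smallest.

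**Figure D4:**
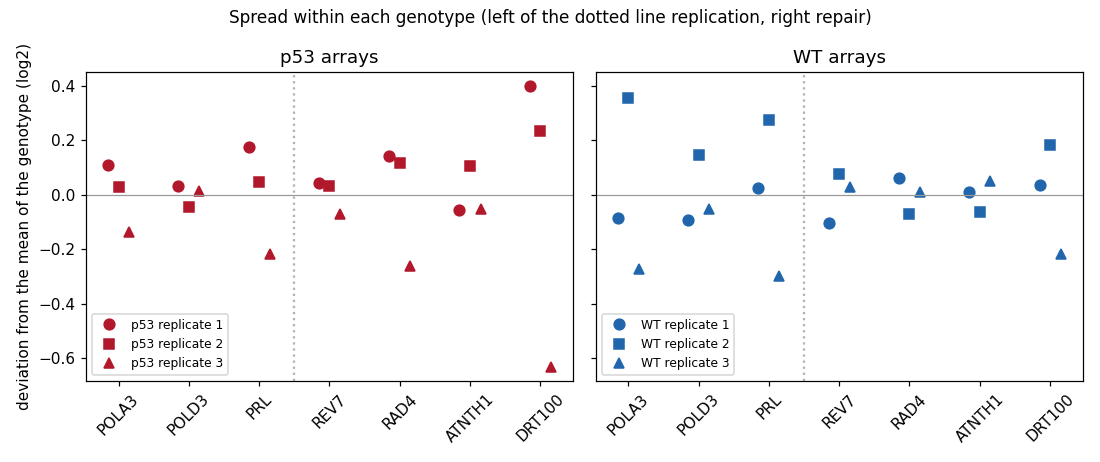
Deviation of each array from the mean of its genotype (y axis, log2) for the 7 genes (x axis), with p53 arrays on the left and WT arrays on the right. Marker shapes give the replicate number. WT replicate 2 is the highest WT array for POLA3, POLD3 and PRL, and p53 replicate 3 reaches -0.63 for DRT100.

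Likeness of pattern was measured as the Euclidean distance over the 6 centred values, against the 13512 other probe sets that name 1 gene. This distance includes the difference between genotypes that chose the 7 genes. Genes chosen in the same direction are therefore partly alike by that choice, and the ranks among them are a description. PRL was the second nearest to POLA3, at a distance of 0.27, after AT5G54630 at 0.23. From PRL the nearest were AT3G13930 at 0.19 and the glutathione reductase gene GR at 0.23, and POLA3 ranked 8 of 13512. POLD3 had AT3G13780 at 0.13 and AT3G54750 at 0.14. From POLD3, POLA3 ranked 410 and PRL 550, while POLD3 ranked 47 from POLA3 and 97 from PRL. The nearest to DRT100, the expansin gene EXPA20, was farther away at 0.34, followed by AT5G50180 at 0.36, and only 7 probe sets lay within 0.5 of it. The values of REV7 and ATNTH1 were all near 0, so a distance of 0.5, which took in 4906 and 4392 probe sets, does not set them apart from genes that hardly varied, and 87 and 114 probe sets lay within 0.2. Their nearest neighbours were AT1G06980 at 0.061 and AT1G67590 at 0.066 for REV7, and AT5G14710 at 0.064 and AT4G08220 at 0.072 for ATNTH1. AT2G05920 and AT1G34640 were nearest to RAD4, each at 0.11.

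The other replication genes with a named probe set were TOPII, ICU2 and PSF2. In a list of 65 replication genes 6 could be named by a probe set that the annotation gives to them alone. Of these 6, 5 were called higher and none lower. Of the 5, 3 are PRL, POLA3 and POLD3, which were chosen for being called. Among all probe sets 6.55% were called higher and 8.84% lower. Of the 3 that were not among the 7 genes, 2 rose. TOPII, the DNA topoisomerase that untangles replicated chromosomes, had centred log2 values of 0.58, 0.43 and 0.37 in the p53 arrays and of -0.37, -0.60 and -0.79 in the WT arrays. By limma TOPII rose 2.06-fold (log2 fold change 1.04, standard error 0.13, adjusted p = 0.0029). ICU2, the catalytic subunit of DNA polymerase alpha and thus a partner of POLA3, had 0.38, 0.19 and 0.14 against -0.14, -0.15 and -0.42, and rose by 0.47 (limma standard error 0.11, adjusted p = 0.0361). PSF2, a subunit of the GINS complex that travels with the MCM helicase, did not pass (limma adjusted p = 0.387, log2 fold change 0.15 within -0.08 to 0.38 at 95% confidence), and its arrays overlapped. The median log2 fold change of these 3 was 0.47, against -0.01 over all probe sets. TOPII passed under every alternative run (adjusted p from 0.000294 to 0.0371), whereas ICU2 did not pass without p53 replicate 1 (0.130) or without WT replicate 1 (0.0818), 2 (0.0718) or 3 (0.116), or with the methods' t-test (0.110), over a range of 0.00483 to 0.130.

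The 4 lists of excision repair, damage tolerance, DRT genes and photolyases held 66 genes, of which 10 could be named by 12 probe sets. Of these 12, 3 were called higher and 3 lower, and 4 of the 6, all 3 of the lower ones included, were the genes described above. Leaving out the chosen genes, 2 of 8 probe sets were called higher, with a median log2 fold change of 0.25, and 4 had an unadjusted p under 0.05 in limma. None was called lower, which the choice fixed, since all 3 lower calls were chosen genes. For comparison, 6.55% of all probe sets were called higher, and 29.2% had an unadjusted p under 0.05 in limma. The methods' t-test called none of the 8, and 6.2% of all probe sets. The repair and replication lists were not tested against each other. CUL4, the scaffold of a ubiquitin ligase that acts in lesion recognition among many other roles, rose by 0.46 (limma standard error 0.10, adjusted p = 0.0286), opposite to RAD4. It had 0.30, 0.21 and 0.10 in the p53 arrays and -0.10, -0.34 and -0.33 in the WT arrays. DME, a glycosylase that excises methylated cytosine, has 3 probe sets, with log2 fold changes of 0.45, 0.29 and 0.115 and limma adjusted p of 0.0247, 0.125 and 0.507, so 1 of the 3 passed. CUL4 and that probe set of DME no longer passed without p53 replicate 1 (0.112 and 0.0922), WT replicate 2 (0.0954 and 0.0831) or WT replicate 3 (0.115 and 0.102), over ranges of 0.00851 to 0.115 for CUL4 and 0.0210 to 0.102 for DME.

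For UNG, the uracil DNA glycosylase, the log2 fold change was 0.20, with 95% confidence bounds of -0.07 and 0.46. For POLH, DNA polymerase eta of translesion synthesis, it was -0.27, with bounds of -0.56 and 0.02. For RAD5, which acts in damage tolerance at stalled forks, it was 0.07, with bounds of -0.20 and 0.34, and -0.04 without WT replicate 3. None of these passed. DRT101, which shares the origin of its name with DRT100, held 0.07, 0.10 and 0.26 against -0.18, -0.07 and -0.41. It did not pass in limma either (adjusted p = 0.0791), but it did after quantile normalization (0.0485, range 0.0485 to 0.223). The arrays of DRT101 and of POLH did not overlap between genotypes, and those of UNG and RAD5 did. Leaving out the 7 genes, 4 of 11 probe sets of the 5 replication and repair lists were called higher and none lower in limma. All 3 lower calls of these lists were among the 7 genes, so leaving these out could leave no lower call. Of the 11, 6 had an unadjusted p under 0.05 in limma, and the methods' t-test called 1. The shares over all probe sets were 6.55% called higher, 8.84% called lower and 29.2% at an unadjusted p under 0.05, and the methods' t-test called 6.2%. No mismatch repair gene could be named. Of 12 double strand break repair genes none was called by limma or by the methods' t-test, and 1 had an unadjusted p under 0.05, with log2 fold changes from -0.26 to 0.31.

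**Figure D5:**
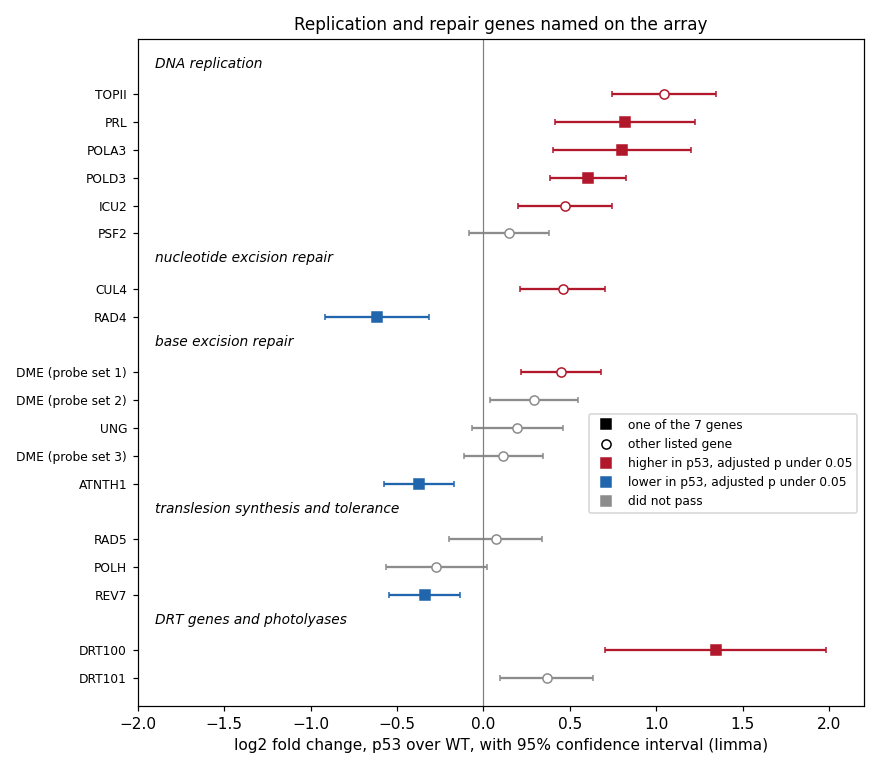
Log2 fold change (p53 over WT, x axis) with the 95% confidence interval from limma for each replication or repair probe set that names 1 gene, grouped by list. Filled squares are the 7 genes, open circles are the other listed genes, and colour gives the call at an adjusted p under 0.05 (red higher, blue lower, grey not passed). The open circles of the replication list lie at 0.15, 0.47 and 1.04 and those of the repair lists between -0.27 and 0.46, and the filled squares were chosen for being called.

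Genes that mark dividing cells were examined beside the replication genes. Of 77 such genes 6 could be named, and none was called higher and 1 lower, with log2 fold changes from -0.52 to 0.44. Calls over all probe sets were 6.55% higher and 8.84% lower. BUB3.1, of the spindle checkpoint, fell by 0.52 (limma standard error 0.11, adjusted p = 0.0219), with -0.31, -0.15 and -0.52 in the p53 arrays and 0.19, 0.24 and 0.15 in the WT arrays. It no longer passed without p53 replicate 1 (0.0796) or WT replicate 1 (0.0811), 2 (0.0748) or 3 (0.0760), or with the methods' t-test (0.0803), over a range of 0.0102 to 0.0811. HTR12, the centromeric histone H3, did not pass in limma at a difference of 0.44 (adjusted p = 0.0796), but passed with the trend and robust settings of eBayes (0.0387, range 0.0387 to 0.198). The mean centred value of the 6 markers ran from -0.06 to 0.05 over the p53 arrays and from -0.13 to 0.06 over the WT arrays. That of TOPII, ICU2 and PSF2, the listed replication genes outside the 7, ran from 0.17 to 0.35 over the p53 arrays. It ran from -0.39 to -0.22 over the WT arrays. The lists were chosen with earlier results of these arrays known, so these means are a description. The defining cyclins and B-type kinases of dividing cells were not among those that could be named, so the part of dividing cells in the replication result was not tested. Of 17 leaf, root, flower and seed probe sets none was called by limma or by the methods' t-test, and only LHCB4.3, a light-harvesting protein, had an unadjusted p under 0.05. Over all probe sets 29.2% had an unadjusted p under 0.05 in limma, 15.4% were called by limma and 6.2% by the methods' test. At these shares 17 probe sets could give few calls, and a difference in tissue make-up was not tested. LHCB4.3 held -0.69, -0.07 and -0.93 in the p53 arrays and 0.07, 0.32 and 0.17 in the WT arrays, which do not overlap. Its limma adjusted p was 0.0613 at a log2 fold change of -0.75, and it passed without p53 replicate 2 (0.00334), with the block (0.0315) and after quantile normalization (0.0490), over a range of 0.00334 to 0.194. LHCB4.3 was not typical of the 9 photosynthetic leaf probe sets, which had a median log2 fold change of 0.08 and ran from -0.75 to 0.15. LHCB4.1 at 0.08 and LHCB4.2 at 0.14 had the opposite sign, and PSAN at -0.12 had the same sign.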

How the data were processed

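Arrays of 10-day-old p53-transgenic and WT seedlings (3 each) were compared. Labels name TRIzol for RNA extraction where the paper's methods name an RNeasy kit, and PLIER is named in the submitters' processing notes. The values deposited by the authors were read as log2 ratios to the median of each probe set (row medians within 5e-07 of 0). How background was corrected, how arrays were normalized and which log was taken: not given in the sources used here. The number of arrays limits the precision. Array medians lay between -0.02 and 0.01.

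Of 22810 probe sets 64 controls were left out. In the platform annotation 13513 name 1 gene, 503 name several and 8730 are not listed. Names and loci follow the TAIR10.1 table by gene ID. No normalization was added. Differences (p53 minus WT, no covariate) were fitted in R 4.3.3 by lmFit and eBayes of limma 3.58.1, and p was adjusted by Benjamini-Hochberg over 22746 probe sets. The intervals are those of the fit. The methods' t-test, named in a legend of the study with a fold change over 2 and without an adjustment, was run with equal variances on the same values. It was adjusted in the same way, and no fold limit was set. The steps were run on simulated data with independent noise and few changed probe sets. That check held no effect shared between arrays, so it does not vouch for the calls or the block fit here.

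The genes named are the 7, listed genes called or near the threshold, and the 2 nearest patterns of each. PSF2, UNG, POLH, RAD5, BUB3.1, HTR12, AUR2 and LHCB4.3 were named after their values were seen. Genes and lists were chosen with earlier results of these arrays known. Lists were matched by symbol or synonym. Deviations of same-numbered p53 and WT arrays from their group means correlated across probe sets with r = 0.12, 0.27 and 0.34, each over the limit of 0.1. For arrays of different numbers r ran from -0.28 to 0.03. A block fit that takes the shared numbers of the labels as pairs was therefore run as an alternative. The standard errors, intervals and calls given without mention of the block come from the fit without pairs. Alternatives were quantile normalization, centred arrays, eBayes with trend and robust, the block, the t-test, each array left out (for lists and listed genes, most of these were chosen after seeing the data), only probe sets naming 1 gene, and values read as natural logs. Scanner files were not used here, so background and dim-probe alternatives were not run, nor was a planned search of promoters.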

Additional observations from a re-analysis of the deposited data

How the results depend on the processing

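The sign of the 7 genes could not turn when an array was left out, since the genotypes do not overlap, and most other alternatives leave the difference as it is or only rescale it. Of 84 values (12 alternatives for each gene, the natural log reading aside, which cannot change a p) 52 kept their side of the adjusted p threshold and 32 did not. POLD3 kept it throughout. POLA3, PRL and DRT100 lost it without p53 replicate 1 (adjusted p 0.0915, 0.0865 and 0.0678), without WT replicate 1 (0.0894, 0.0770 and 0.0702), without WT replicate 3 (0.0764, 0.0660 and 0.0830) and with the methods' t-test (0.110, 0.108 and 0.113). RAD4 lost it without WT replicate 1 (0.0840), 2 (0.0522) or 3 (0.0824) and with that t-test (0.0896). ATNTH1 passed without p53 replicate 2 (0.0229) and failed without any other array (0.0520 to 0.120). REV7 failed without any 1 array (0.0590 to 0.146) and with each array centred on its median (0.0504), which left 2 lower calls in the 5 lists. ATNTH1 and REV7 also failed with the t-test (0.0565 and 0.0697). The values read as natural logs put DRT100 at 1.94 and REV7 at -0.49. With the replicate number as a block, ATNTH1 and REV7 had adjusted p of 0.0588 and 0.0677, so 1 probe set of the 5 replication and repair lists was lower, against 3 in the fit without it. Of the other named genes the block changed the call of LHCB4.3 alone (0.0315), and it gave 3878 calls in all. The cause of these changes was not tested. Leaving out an array leaves fewer samples, but calls did not fall each time. Against 3500 with all arrays, there were 4346 without p53 replicate 2 and 3934 without p53 replicate 3.

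The count of called probe sets was 3500 (1490 higher, 2010 lower). It was 1411 (668 and 743) with the methods' t-test and 1797 (724 and 1073) over probe sets that name 1 gene, which are fewer. With 1 array left out it ran from 1621 (without WT replicate 3) to 4346 (without p53 replicate 2), from 722 to 1961 higher and from 899 to 2385 lower. It was 1747 without WT replicate 1 and 1710 without p53 replicate 1, and 1304 were lower without WT replicate 2. Of 18 probe sets of the 5 lists, 8 were higher and 3 lower, and these calls include the 7 genes chosen for being called. Over all probe sets 6.55% were called higher and 8.84% lower. Leaving out the 7 genes, 4 of 11 were higher and none lower, the latter fixed by the choice. Of the 18, the t-test called 2 higher and 0 lower, with 9 and 3 at an unadjusted p under 0.05. It called 6.2% of all probe sets. With 1 array left out 2 to 8 of the 18 were higher and 0 to 2 lower, with 3 or 4 lower at an unadjusted p under 0.05. Higher calls were 2 without p53 replicate 1 or WT replicate 3, 4 without WT replicate 1 and 5 without WT replicate 2. Replication minus repair (0.74) was 0.65 to 0.85 with 1 array left out, 1.18 without DRT100 and 1.16 as a difference of medians. With 1 array left out RAD5 ran from -0.0411 (without WT replicate 3) to 0.13, and AUR2, an Aurora kinase, from -0.0036 (without p53 replicate 2) to 0.18, and neither passed in any fit. Trend and robust settings and the t-test leave the average difference as it is. Without levels, signal over background could not be judged.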
